A study of Mus musculus with 4 samples.

Results

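Apart from Tpt1, the 8 genes described here encode proteins that carry messenger RNAs through translation. They were chosen by symbol: Eef1a1, Eef1b2, Eef1g, Eef2, Pabpc1, Tpt1, Eif4g2 and Eif4a1. Each symbol matched exactly 1 row, so 8 of the 47069 gene rows are members, and each member had counts in all 4 libraries. Tumours had grown for 3 weeks under the skin of C57BL/6 mice inoculated with Lewis lung carcinoma (LLC), a mouse lung tumour cell line that is transplanted into this strain. The exosome group holds 2 libraries of RNA from tumour-derived exosomes. For these, pieces of such tumours were kept for 12 h in medium without serum, the medium was cleared of debris by centrifugation and a 0.2 µm filter, and the vesicles were precipitated with a polymer reagent. The tumour group holds 2 libraries of RNA from the primary tumour itself. All libraries share the same strain, cell line and time, and no library comes from a tissue without a tumour. The labels do not say whether replicates came from separate animals, so a p-value here speaks only of how far these libraries scatter, and that scatter may be technical. A precipitate can also carry RNA that is not inside vesicles, and the labels give no check of this.

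During elongation, the GTPase eEF1A, encoded by Eef1a1, brings each aminoacyl transfer RNA to the ribosome. The eEF1B complex, of which Eef1b2 and Eef1g encode subunits, reloads eEF1A with GTP, and eEF2 then moves the ribosome along by a codon. The cytoplasmic poly(A)-binding protein encoded by Pabpc1 coats the tail of the messenger RNA and contacts the initiation complex at its cap. Several of these messenger RNAs, among them those of Eef1a1, Eef2, Pabpc1 and Tpt1, begin with a run of pyrimidines that places their translation under the control of the growth kinase mTOR, and they belong to the most abundant messenger RNAs of dividing cells.

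The exosome libraries held 305751 and 217201 counts over all genes, and the tumour libraries held 14543691 and 10849811. Protein-coding genes took 2.83% and 3.30% of the exosome counts and 1.55% and 1.58% of the tumour counts, so almost all counts lay in genes of other classes. A single count stands for 3.27 or 4.60 CPM, counts scaled to 1e+06 of a library's total, in the exosome libraries and for 0.0688 or 0.0922 CPM in the tumour libraries. Of markers of other cells, the 5 erythroid genes were detected in both groups, with summed levels of 268 and 483 CPM in exosomes and 114 and 81.2 CPM in tumour. The 4 fibroblast genes stood at 78.5 and 96.7 CPM in exosomes and at 8.80 and 7.19 CPM in tumour, the 6 macrophage genes at 9.81 and 36.8 CPM and at 4.33 and 4.06 CPM, and the 3 endothelial genes at 9.81 and 18.4 CPM and at 0.963 and 0.737 CPM. Adgre1, C1qa and Cd68 of the macrophage list and Kdr of the endothelial list had no exosome count. The 3 T cell genes had no count in any library. Of 4 epithelial and carcinoma genes, only Krt18 had a count in exosomes and only Krt8 and Krt18 in tumour, while the defining epithelial markers Epcam and Cdh1 had none in any library. On this scale of library totals the summed erythroid, fibroblast, macrophage and endothelial levels were higher in both exosome libraries than in both tumour libraries, as for most tested genes. After TMM scaling, which sets the typical tested gene near 0, Hba-a1 and Hba-a2 of the erythroid list were lower in exosomes, at -1.08 and -1.04 on the log2 scale (edgeR adjusted p = 0.00928 for each). Markers of other lists stood above 0, with Col1a1 at 1.80, Col3a1 at 0.56, Cdh5 at 1.54 and Csf1r at 0.12. Their edgeR adjusted p were 0.120, 0.138, 0.151 and 0.954, none under 0.05. The remaining markers are not given on this scale. The part of these cells in the results was not tested. In the bulk RNA of the tumour libraries, fewer cells of a type and less RNA per cell cannot be told apart. Levels in the exosome libraries, made from filtered medium, do not count cells.

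Together the 8 members had 132 and 105 counts in the exosome libraries, against 907 and 571 counts in the tumour libraries. As a share of all counts, the family held 0.0432% (exact Clopper-Pearson 95% interval 0.0361% to 0.0512%) and 0.0483% (0.0395% to 0.0585%) of the exosome libraries. It held 0.00624% (0.00584% to 0.00666%) and 0.00526% (0.00484% to 0.00571%) of the tumour libraries. The group means were 0.0458% ± 0.00366 in exosomes and 0.00575% ± 0.000688 in tumour (SD, n = 2 each), a ratio of 7.96, and the libraries of the groups did not overlap. These intervals cover counting error only, because the labels name no molecular identifiers and amplified reads are not independent molecules. The shares were not tested, since the smallest p that an exact two-sided permutation of 2 and 2 libraries can reach is 0.333.

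Which part of the library serves as the yardstick set how far the groups stood apart. Against protein-coding genes that hold no annotated small RNA gene, the family took 1.81% and 1.70% of exosome counts and 0.455% and 0.376% of tumour counts. A single gene, Snrpb, held 0.224% and 0.231% of the counts of those coding genes outside the family in exosomes, but 74.0% and 76.0% in tumour. Leaving Snrpb out was a choice made after the data had been seen. The family then held 1.82% (95% interval 1.52% to 2.15%) and 1.71% (1.40% to 2.06%) of the remaining coding counts in exosomes. In tumour it held 1.73% (1.62% to 1.84%) and 1.55% (1.43% to 1.68%). The means were 1.76% ± 0.0779 in exosomes and 1.64% ± 0.125 in tumour, a ratio of 1.07, and the intervals of the single libraries overlapped. At this depth no difference between the groups was detectable in the family's share of these coding counts. They leave out Snrpb and, apart from the members, all coding genes that hold a small RNA gene. The 7.96-fold larger share of all counts in exosomes is a share of a total that lies almost wholly outside protein-coding genes. Against all protein-coding genes the ratio of group means was 4.07, and against those that hold no small RNA gene it was 4.23. The ratio of 1.07 was reached only with Snrpb left out. What sets these ratios apart was not tested.

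**Figure D1:**
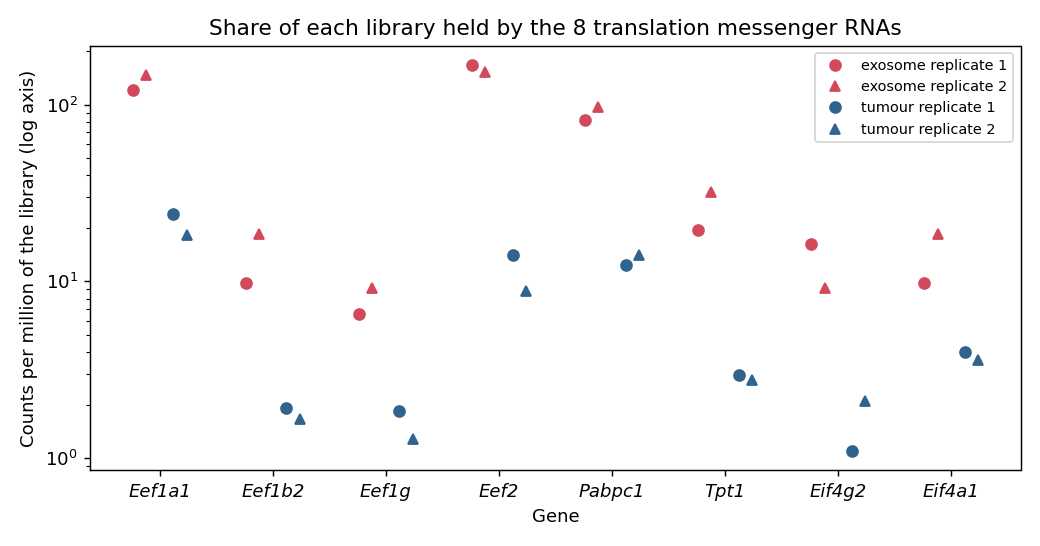
Level of each gene in CPM of the library total (log axis), with 1 point per library, exosomes in red to the left and tumour in blue to the right, circles for replicate 1 and triangles for replicate 2. All 8 genes lie higher in both exosome libraries than in both tumour libraries on this scale, with Eef2 at 167 and 152 CPM in exosomes against 14.2 and 8.85 CPM in tumour.

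Gene by gene, the counts were compared with edgeR's quasi-likelihood test after TMM scaling over 1442 tested genes with Benjamini-Hochberg adjustment at 0.05. Differences are log2, exosomes minus tumour, each with its standard error (SE). Of the 8 members, 1 was higher in exosomes, where 16.0% of all tested genes were, and 0 were lower, where 22.1% of tested genes were. The median difference of the members was 0.037, beside 0.018 over all tested genes and 0.071 over the 731 tested coding genes with no small RNA gene inside. Scaling to library totals in place of TMM moved the median of all tested genes to 2.75, and 8 of 8 members were then called higher, where 63.8% of tested genes were. On that scale both exosome libraries lay above both tumour libraries for 8 of 8 members and for 77.2% of tested genes. All members passed the filter on low counts. Eef1b2, Eef1g and Eif4g2 reached the filter level of 1.79 CPM in both exosome libraries but in only 1 of the 2 tumour libraries, so that their admission rests on exosome counts. A single exosome count, 3.27 or 4.60 CPM, exceeds that level, so other tested genes could be admitted in the same way. Higher calls with library totals are therefore partly built in, for these members and for the 63.8% of tested genes.

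Other settings gave other counts of members, each set here beside the share of all tested genes called in that direction. Only Eef2 was called higher with DESeq2 (14.4% of tested genes higher), with median-of-ratios scaling (15.4%), with TMM computed on coding genes that hold no small RNA gene (16.1%), with a filter of at least 10 counts in 2 or more libraries (16.8%), with the replicate block (16.9%) and with coding counts other than Snrpb as the scale (15.7%). It was also the only member called when exosome replicate 2 (14.7%) or tumour replicate 1 (16.2%) was left out. No member was called when exosome replicate 1 (14.3%) or tumour replicate 2 (15.7%) was left out. As scales, coding counts are those of coding genes that hold no small RNA gene. With Snrpb included they called 6 of 8 members higher (47.5%), and limma on log2(FPKM + 1) called 8 of 8 (57.6%). With no filter on low counts 0 members were higher (1.49%), and Eef1a1, Pabpc1 and Eif4a1 were lower (4.23%). The DESeq2 share counts as not called 336 of its 1442 genes that received no adjusted p, so it is not directly comparable with the edgeR shares.

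Eef2 encodes the factor that drives translocation of the ribosome and was the only member called. It had 51 and 33 counts in exosomes against 206 and 96 counts in tumour, or 159 ± 10.5 CPM in exosomes and 11.5 ± 3.76 CPM in tumour (SD, n = 2 each). Both exosome libraries lay far above both tumour libraries in CPM, and tumour replicate 1 was the higher of the tumour pair. After TMM scaling Eef2 was higher in exosomes by 1.01 (SE 0.28, edgeR adjusted p = 0.0230), which is 0.99 above the median of all tested genes. As a ratio of shares of all counts it stood 13.5-fold higher in exosomes, with a counting interval of 10.5 to 17.3. Here and for the genes below, this ratio pools the libraries of each group, unlike the family's ratio of group means. Its interval leaves out the scatter between replicates and is too narrow for a comparison of groups. Over genes with enough counts, replicates scattered more than counting alone gives (chi-square per degree of freedom 18.7 in exosomes and 16.5 in tumour). Leaving out exosome replicate 1 ended the TMM call (0.78, edgeR adjusted p = 0.0566), and so did leaving out tumour replicate 2 (0.75, edgeR adjusted p = 0.223), so the call rests on those libraries. With no filter on low counts the value was -0.17, below 0 but 1.69 above the median of all genes then tested, which had moved to -1.86.

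Eef1a1 encodes the carrier of aminoacyl transfer RNA and was the member with the most counts in tumour. It had 37 and 32 counts in exosomes against 350 and 198 counts in tumour, or 134 ± 18.6 CPM in exosomes and 21.2 ± 4.11 CPM in tumour. The CPM values did not overlap, yet after TMM scaling the difference was -0.14 (SE 0.21, edgeR adjusted p = 0.708) and was not called. Its share of all counts was 6.11-fold higher in exosomes (counting interval 4.69 to 7.86).

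Eef1b2 and Eef1g, which encode the exchange subunit and the scaffold subunit of eEF1B, were sparse in exosomes. Eef1b2 had 3 and 4 counts in exosomes against 28 and 18 counts in tumour, and Eef1g had 2 and 2 counts in exosomes against 27 and 14 counts in tumour. The fitted TMM differences were 0.12 (SE 0.51, edgeR adjusted p = 0.938) for Eef1b2 and -0.51 (SE 0.63, edgeR adjusted p = 0.649) for Eef1g. Ratios of shares of all counts were 7.39 (counting interval 2.81 to 16.5) and 4.74 (1.23 to 13.1). With so few reads, a moderate difference of either sign relative to other messenger RNAs would not have been detectable for these subunits.

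Pabpc1, for the poly(A)-binding protein, had 25 and 21 counts in exosomes against 179 and 153 counts in tumour, or 89.2 ± 10.5 CPM in exosomes and 13.2 ± 1.27 CPM in tumour. The replicates of each group lay close together. The TMM difference was -0.042 (SE 0.23, edgeR adjusted p = 0.960), the nearest to 0 of the members, and the ratio of shares of all counts was 6.73 (counting interval 4.83 to 9.18). Tpt1 encodes the translationally controlled tumour protein, a small and abundant cytosolic protein linked to growth. It had 6 and 7 counts in exosomes against 43 and 30 counts in tumour, with a TMM difference of 0.34 (SE 0.39, edgeR adjusted p = 0.637) and a ratio of shares of 8.65 (counting interval 4.40 to 15.7). Neither gene was called, and in both the exosome libraries lay above the tumour libraries in CPM.

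Of the initiation factors, Eif4a1 encodes the helicase that unwinds the leader of the messenger RNA for the scanning ribosome. It had 3 and 4 counts in exosomes against 58 and 39 counts in tumour. Its TMM difference of -0.95 (SE 0.44, edgeR adjusted p = 0.142) was the lowest among the members and was not called, and its ratio of shares of all counts was 3.50 (counting interval 1.37 to 7.50). Eif4g2 encodes a relative of the scaffold eIF4G that lacks the site for the cap-binding protein. It had 5 and 2 counts in exosomes against 16 and 23 counts in tumour, with a TMM difference of 0.32 (SE 0.70, edgeR adjusted p = 0.806) and a ratio of shares of 8.72 (counting interval 3.29 to 19.7). Replicates of Eif4g2 differed in both groups, at 16.4 and 9.21 CPM in exosomes and 1.10 and 2.12 CPM in tumour.

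**Figure D2:**
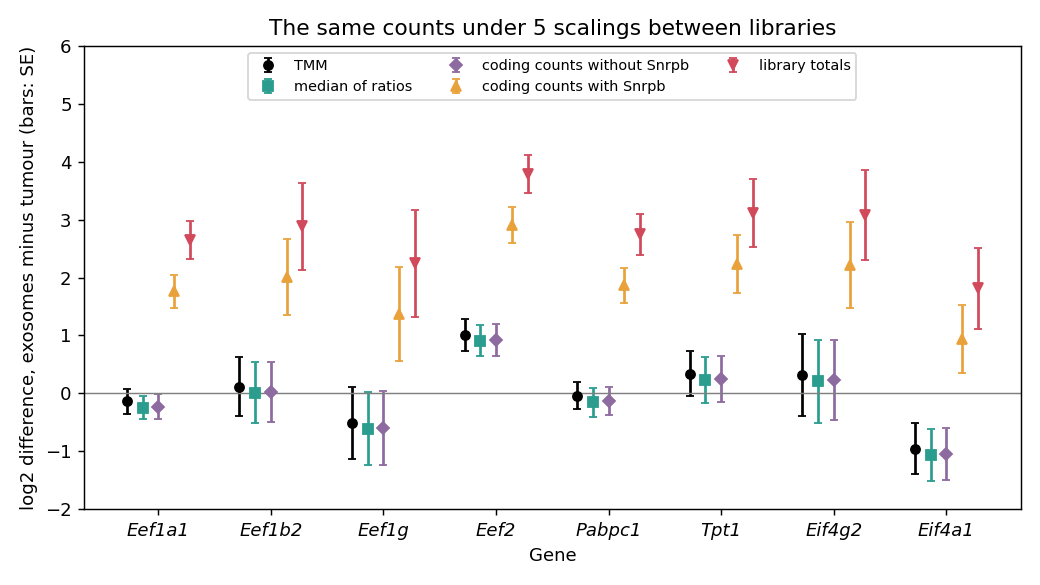
Log2 difference, exosomes minus tumour, for each gene under 5 scalings of the same counts, with bars for the standard error. With TMM, median of ratios or coding counts without Snrpb Eef2 lies near 1, Eif4a1 near -1 and Eef1g between -0.51 and -0.61, and the other genes lie between -0.24 and 0.34, while library totals lift all 8 above 0.

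The make-up of the family within a library needs no scaling between libraries. Eef2 took 38.6% (exact 95% interval 30.3% to 47.5%) and 31.4% (22.7% to 41.2%) of the family's counts in exosomes, against 22.7% (20.0% to 25.6%) and 16.8% (13.8% to 20.1%) in tumour. The exosome libraries lay above the tumour libraries, although the lower bound of exosome replicate 2 fell inside the interval of tumour replicate 1. Eef1a1 showed the opposite order, with 28.0% (20.6% to 36.5%) and 30.5% (21.9% to 40.2%) in exosomes. In tumour it took 38.6% (35.4% to 41.8%) and 34.7% (30.8% to 38.7%), and the intervals of the groups overlapped. The number of Eef2 counts per Eef1a1 count was thus 1.38 (exact 95% interval 0.885 to 2.16) and 1.03 (0.615 to 1.73) in exosomes, against 0.589 (0.493 to 0.701) and 0.485 (0.376 to 0.622) in tumour. Both exosome intervals include equal numbers of the 2 genes, both tumour intervals lie below that, and the interval of exosome replicate 2 overlaps those of the tumour libraries. With the near-identical pseudogene copies of both genes counted in, exosomes had 0.945 (0.635 to 1.41) and 0.791 (0.489 to 1.27) Eef2 counts per Eef1a1 count. In tumour there were 0.475 (0.401 to 0.561) and 0.387 (0.303 to 0.490). Eef1a1 then had more counts than Eef2 in every library, but both exosome intervals still include equal numbers. Eif4a1 took 2.27% (0.471% to 6.50%) and 3.81% (1.05% to 9.47%) in exosomes. In tumour it took 6.39% (4.89% to 8.19%) and 6.83% (4.90% to 9.22%), and these intervals overlapped too. Pabpc1 took 18.9% and 20.0% against 19.7% and 26.8%, and the groups overlapped. Eef1a1, Eef2 and Pabpc1 together made up 85.6% and 81.9% of the family in exosomes and 81.0% and 78.3% in tumour. These shares sum to a fixed total, so a rise of Eef2 lowers the others, and they were not tested.

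**Figure D3:**
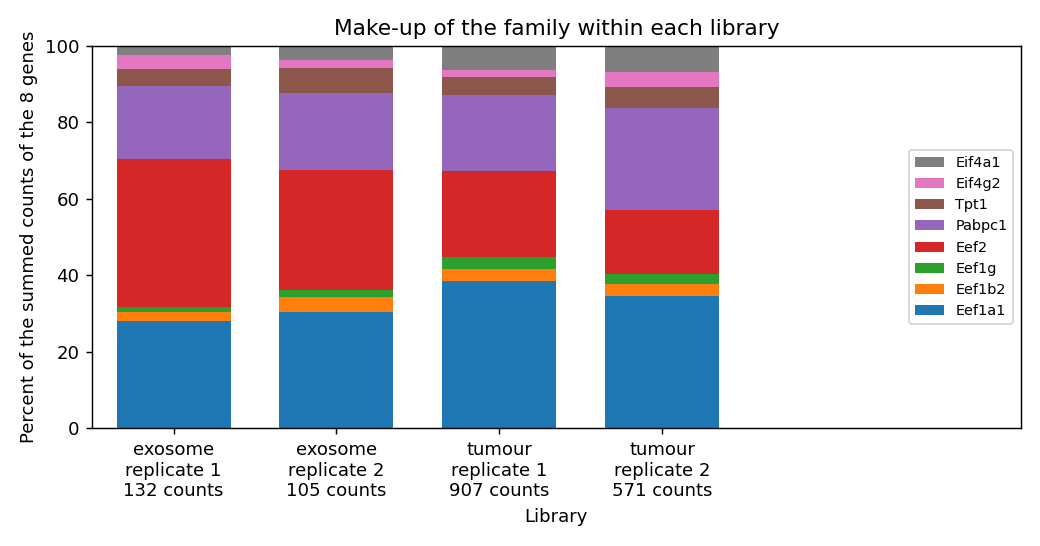
Percent of the summed counts of the 8 genes held by each gene, 1 stacked bar per library, with exosomes on the left and tumour on the right and the summed count under each bar. Eef2 takes 38.6% and 31.4% in exosomes and 22.7% and 16.8% in tumour.

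Levels of different genes can be compared only per length. In the deposited FPKM, which divide the CPM by a gene length in kilobases, the order of means in exosomes was Eef2 (51.4 ± 3.39), Eef1a1 (21.6 and 26.3 in the libraries), Pabpc1 (12.9 ± 1.52), Tpt1 (5.35 ± 1.84), Eef1b2 (2.58 ± 1.11), Eef1g (2.49 ± 0.598), Eif4a1 (1.51 ± 0.652) and Eif4g2 (1.15 ± 0.454). In tumour the order was Eef1a1 (3.78 ± 0.735), Eef2 (3.71 ± 1.21), Pabpc1 (1.91 ± 0.183), Tpt1 (0.590 ± 0.0279), Eef1g (0.498 ± 0.127), Eif4a1 (0.407 ± 0.0298), Eef1b2 (0.328 ± 0.0344) and Eif4g2 (0.145 ± 0.0649). In exosomes the libraries of neighbours overlapped for Eef1b2 with Eef1g and for Eif4a1 with Eif4g2. In tumour they overlapped for Eef1a1 with Eef2, for Tpt1 with Eef1g and for Eef1g with Eif4a1, so those orders do not hold beyond the spread. The FPKM imply gene lengths of 5.60 kb for Eef1a1, 9.33 kb for Eif4a1 and 3.10 kb for Eef2, where the longest annotated coding transcripts are 1.79, 1.77 and 3.09 kb. For Eif4a1, Eef1b2 and Tpt1 the implied length even exceeds the annotated span of the gene, for example 5.49 kb for Eif4a1. Divided by the length of the longest coding transcript instead, Eef1a1 stood at 74.8 CPM per kb in exosomes, above Eef2 at 51.6, and at 11.8 CPM per kb in tumour, above Pabpc1 at 4.69 and Eef2 at 3.72. The leading place of Eef2 in exosome FPKM therefore depends on the gene lengths used.

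Among 19496 coding genes, taken as those with no small RNA gene inside plus the members, Eef2 ranked 4 and 6 by count in the exosome libraries and 24 and 41 in the tumour libraries. Eef1a1 ranked 7 and 7 in exosomes and 18 and 18 in tumour, and Pabpc1 ranked 11 and 10 in exosomes and 31 and 26 in tumour. Counts per gene also carry gene length, and these ranks describe only which messenger RNAs fill the libraries.

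Introns of translation genes often hold small nucleolar RNAs (snoRNAs), which are released from the spliced intron and guide the chemical modification of ribosomal and spliceosomal RNA. In the GENCODE M21 annotation (GRCm38), 6 of the 8 members hold 11 annotated small RNA genes, all on the strand of the host, and Pabpc1 and Eef1g hold none. Of these 11 genes, 5 had a count. Snord37 lies in an intron of Eef2 (host chr10:81176631-81182498, plus strand), Gm25835 in an intron of Eif4a1 (host chr11:69666936-69672423, minus strand), Snora31 in an intron of Tpt1 (host chr14:75845093-75848525, plus strand) and Snora41 in an intron of Eef1b2 (host chr1:63176825-63180486, plus strand). No annotated transcript of the host has an exon over any of these 4 genes. Their annotated sequences are shown because they are the other RNA made from the same host transcript. Snord37 is at chr10:81178950-81179013, plus strand, Gm25835 at chr11:69668852-69668995, minus strand, Snora31 at chr14:75847905-75848034, plus strand, and Snora41 at chr1:63179004-63179135, plus strand.
Snord37: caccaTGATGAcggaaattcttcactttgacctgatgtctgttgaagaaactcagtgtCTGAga
Gm25835: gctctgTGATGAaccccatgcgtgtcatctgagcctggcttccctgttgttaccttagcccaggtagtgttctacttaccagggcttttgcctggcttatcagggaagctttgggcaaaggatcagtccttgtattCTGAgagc
Snora31: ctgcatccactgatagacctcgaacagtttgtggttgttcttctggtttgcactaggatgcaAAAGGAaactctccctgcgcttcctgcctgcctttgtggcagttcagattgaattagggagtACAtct
Snora41: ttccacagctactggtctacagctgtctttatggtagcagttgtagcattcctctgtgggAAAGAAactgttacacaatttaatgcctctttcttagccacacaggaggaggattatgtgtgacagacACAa
Capitals in Snord37 and Gm25835 mark the letters TGATGA near the 5′ end and CTGA near the 3′ end, the motifs of box C/D snoRNAs. Capitals in Snora31 and Snora41 mark the first match to ANANNA in the middle part and the last ACA near the 3′ end, the motifs of box H/ACA snoRNAs. The letters were searched on the printed strand only and are a description. Gm25835 carries no family name in the annotation.

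**Figure D4:**
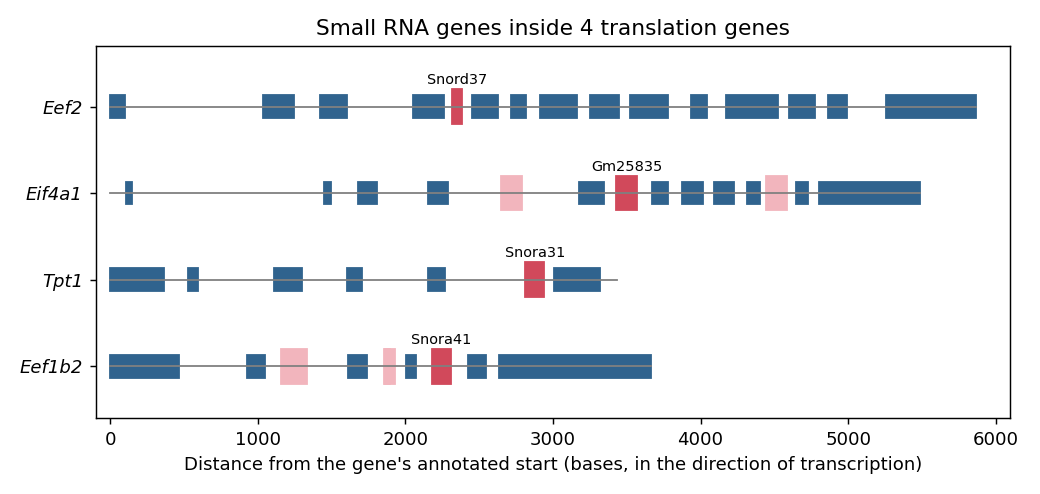
Map of 4 genes by distance from the annotated start in bases, in the direction of transcription, with exons of the longest coding transcript in blue and small RNA genes in red (dark and named where at least 10 counts were found over all libraries, pale otherwise). Snord37, Gm25835, Snora31 and Snora41 each lie between exons.

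Within a locus the counts of host and snoRNA can be set side by side inside each library. They are not numbers of molecules, because the RNAs differ in length and the libraries were cut from a gel. How far this touches the ratios was not tested. At Eef2, exosomes gave 51 and 33 host counts beside 6 and 2 counts of Snord37, while tumour gave 206 and 96 host counts beside 91328 and 63049 counts of Snord37. The host thus made up 89.5% (exact 95% interval 78.5% to 96.0%) and 94.3% (80.8% to 99.3%) of the counts at the locus in exosomes, against 0.225% (0.195% to 0.258%) and 0.152% (0.123% to 0.186%) in tumour. There were 0.118 and 0.0606 Snord37 counts per Eef2 count in exosomes, against 443 and 657 in tumour. The groups did not overlap at this locus.

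Eif4a1 and Tpt1 were ordered in the same way. At Eif4a1, 3 and 4 host counts stood beside 13 and 4 counts of Gm25835 in exosomes, and 58 and 39 host counts beside 22258 and 17026 in tumour. The host thus held 3 of 16 and 4 of 8 counts in exosomes, and 0.260% and 0.229% of the counts in tumour. At Tpt1, Snora31 had 0 and 1 counts in exosomes against 693 and 450 counts in tumour, and the host held 6 of 6 and 7 of 8 counts of the locus in exosomes, and 5.84% and 6.25% in tumour. Eef1b2 differed from these: with Snora41 and the other small RNA genes inside, 1 and 1 counts stood beside the host in exosomes and 11 and 7 in tumour, so that the host held 3 of 4 and 4 of 5 counts in exosomes, and 71.8% and 72.0% in tumour, with overlapping intervals. Eef1a1 and Eif4g2 hold small RNA genes without a count in any library.

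After TMM scaling Snord37 was lower in exosomes (-11.40, SE 0.30, edgeR adjusted p = 8.65e-08), Gm25835 stood at -8.36 (SE 0.31, edgeR adjusted p = 2.42e-07) and Snora31 at -7.23 (SE 0.47, edgeR adjusted p = 5.87e-06), each of these lower in exosomes with library totals too (-8.63, -5.59 and -4.53). Snora41 had 1 and 1 counts in exosomes against 10 and 7 in tumour and was not called (-0.25, SE 0.67, edgeR adjusted p = 0.907), and it stood at 2.48 with library totals, where the median of all tested genes was 2.75. For Snord37, Gm25835 and Snora31 the edgeR adjusted p with library totals were 1.94e-26, 3.92e-20 and 1.24e-05. Over all tested genes, 22.1% were lower with TMM and 11.5% with library totals. The hosts of the 3 lower snoRNAs were not called lower in the TMM fit. Reads of a snoRNA could be counted for its host if the authors' gene model covered the intron. How far this touches the host counts was not tested.

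**Figure D5:**
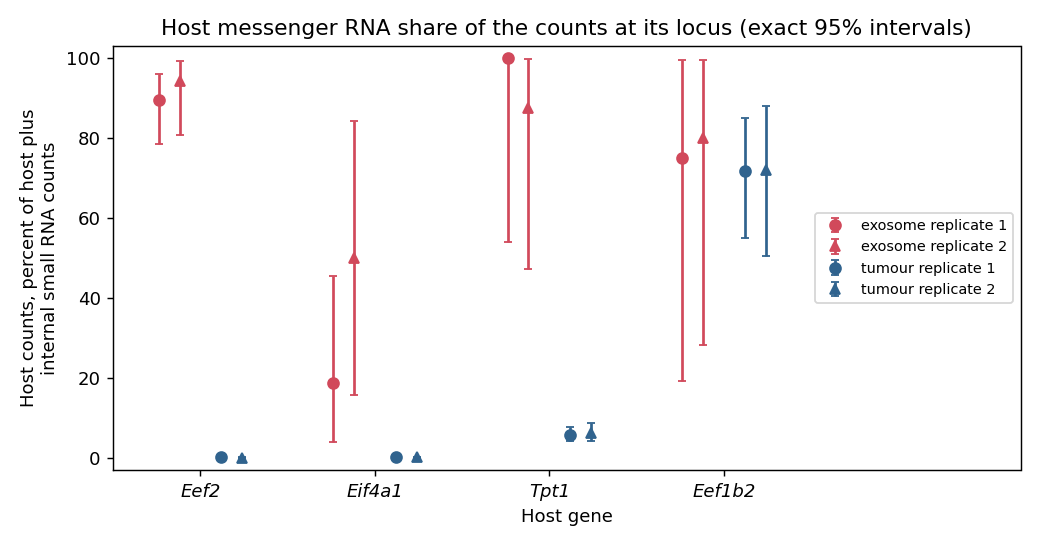
Host counts as a percent of host plus internal small RNA counts at 4 loci, with exact binomial 95% intervals, exosomes in red on the left and tumour in blue on the right. At Eef2, Eif4a1 and Tpt1 the exosome libraries lie above the tumour libraries, and at Eef1b2 the intervals overlap.

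Several members also have processed pseudogenes, copies of the messenger RNA in the genome that can share its reads. At a minimum of 90% identity over at least 80% of the pseudogene, 25 such copies were found in the table, and 17 had a count. Their summed counts were 25 and 19 in exosomes and 140 and 92 in tumour. Eef1a1 had the most, 10 copies with 18 and 11 counts in exosomes and 90 and 58 counts in tumour, so that its own counts are uncertain to that extent. For Eef1g the copies had 0 and 5 counts in exosomes against 6 and 1 counts in tumour, and adding them turned its TMM difference to 0.43 (edgeR adjusted p = 0.710). With all copies added to their members, Eef1a1 moved to 0.014 and Eef2 stayed called at 1.01 (edgeR adjusted p = 0.0193).

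Other genes, of translation or with messenger RNAs that start with a pyrimidine run, were described from 7 lists of 85 genes. Of the 85, 72 had a count and 22 passed the filter. Of these 22, 0 were called higher in exosomes and 4 lower by edgeR with TMM, beside 16.0% and 22.1% of all tested genes. With library totals 16 were higher and 0 lower, beside 63.8% and 11.5% of all tested genes. Several of the 22, for example Eif1, Eif2s2, Eif3h and Gspt1, lay below the filter level of 1.79 CPM in both tumour libraries. They passed through exosome counts alone, so a higher call with library totals is partly built in. The median TMM difference of the 22 was -0.34. Together the 85 genes had 139 and 112 counts in exosomes against 1532 and 1093 in tumour. Among eIF3 subunits, which build the scaffold on which the small ribosomal subunit is loaded, 3 of 14 were tested, and 2, Eif3a and Eif3m, were called lower, beside 22.1% of all tested genes. Eif3m had 0 and 1 counts in exosomes against 74 and 70 counts in tumour (-4.28, SE 0.82, edgeR adjusted p = 0.00378). Eif3a had 3 and 5 counts in exosomes against 89 and 70 in tumour (-1.48, SE 0.41, edgeR adjusted p = 0.0232), and Eif3h, the third, stood at -0.33 (edgeR adjusted p = 0.859).

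Of 9 other messenger RNAs that start with a pyrimidine run, 7 were tested, 2 were lower and 0 higher, beside 22.1% and 16.0% of all tested genes. Rack1, for a scaffold protein of the small ribosomal subunit, had 11 and 10 counts in exosomes against 253 and 203 in tumour (-1.62, SE 0.26, edgeR adjusted p = 0.00136). Nap1l1, for a histone chaperone, had 6 and 7 counts in exosomes against 135 and 88 in tumour (-1.26, SE 0.32, edgeR adjusted p = 0.0152). Vim, for the intermediate filament protein vimentin, had 33 and 18 counts in exosomes against 153 and 81 in tumour and stood at 0.65 (edgeR adjusted p = 0.138). With library totals Rack1 and Nap1l1 stood at 1.16 and 1.52, Eif3a at 1.29 and Eif3m at -1.57, all below the median of 2.75 over all tested genes on that scale. Eif3a, Rack1 and Nap1l1 overlap annotated small RNA genes.

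The remaining lists gave no call with TMM. Of the other eIF4 factors 4 of 13 were tested, with Eif4b, a cofactor of the helicase, at 9 and 12 counts in exosomes against 51 and 36 in tumour (0.78, edgeR adjusted p = 0.128). Eif4g1, the main scaffold of the cap complex, had 7 and 9 counts in exosomes against 81 and 52 in tumour (-0.22, edgeR adjusted p = 0.718), and Eif4g3 stood at 0.90 (edgeR adjusted p = 0.459). Of the other poly(A)-binding proteins and their partners 3 of 13 were tested. Larp1, which binds pyrimidine-run messenger RNAs, stood at 0.12, Larp4b at 0.36 and Pabpc4 at -0.68 (edgeR adjusted p = 0.926, 0.801 and 0.668). Eif5a stood at -0.11, Eif1 at -0.54, Eif2s2 at 0.030, and the release and recycling factors Gspt1 and Abce1 at -0.34 and -1.16, with edgeR adjusted p of 0.945, 0.702, 0.989, 0.799 and 0.360.

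For each member, the coding gene with the nearest pattern was sought among 731 tested coding genes with no small RNA gene inside. Nearness was the Euclidean distance of log2 CPM after TMM scaling, with a small constant added to each count, centred over the 4 libraries. Eef2 was nearest to Il18rap (distance 0.164), which had 3 and 2 counts in exosomes against 12 and 5 in tumour. Eef1a1 was nearest to Kars (0.145), Eef1b2 to Ezr (0.107), Eef1g to Cfl1 (0.0693), Pabpc1 to Drap1 (0.138), Tpt1 to Tpm3 (0.158), Eif4g2 to Cast (0.181) and Eif4a1 to Hba-a1 (0.210). These are distances over 4 libraries that fall into 2 groups, and most of the nearest genes had fewer than 10 counts in each exosome library, so they are given as a description.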

How the data were processed

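RNA was measured in 2 exosome and 2 tumour libraries. Per the labels' protocols, adaptors were ligated to total RNA, which was amplified by RT-PCR and cut from a gel. Per the submitters' processing notes, TopHat2 2.0.9, Cufflinks 2.1.1 and Cuffdiff were used with GRCm38.p4, with no roles given. The counting tool, annotation, strand setting and treatment of reads with several matches were not stated in any source used here. The deposited counts are whole numbers per gene, not normalized. The authors also deposited FPKM, per the file headers. Each sample's own table equalled the series table. Of 47069 gene IDs, 46574 had a symbol in GENCODE M21.

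The test was that of edgeR 4.0.16 under R 4.3.3 (TMM, filterByExpr with minimum count 10 and minimum total 15, quasi-likelihood, group as the only term, Benjamini-Hochberg over all 1442 genes tested). SE is the absolute difference divided by the square root of F. Alternatives used DESeq2 1.42.0, limma 3.58.1 on log2(FPKM + 1), other scalings and filters, a replicate block, added pseudogenes (blastn 2.17.0) and leaving out each library. Intervals came from scipy 1.17.1. The pipeline was also run on simulated data that lacked the strong difference in make-up between these groups. That run therefore does not test the choice of scaling. Members and gene lists were chosen with earlier results of these data known. Genes named are the members, small RNA genes inside them, up to 3 tested genes per list with the highest mean CPM, and the nearest gene per member. Krt8, Krt18, other marker genes and Snrpb were named for the markers and the scaling.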

Additional observations from a re-analysis of the deposited data

How the results depend on the processing

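With library totals 8 members were called higher, with the coding counts that include Snrpb 6, and with limma on log2(FPKM + 1) 8, and the medians of the members were then 2.81, 1.94 and 1.68, beside 2.75, 1.88 and 0.75 over all tested genes. In the same order, genes called higher over the whole table were 920, 685 and 830, and genes called lower were 166, 207 and 171. Library totals and coding counts shift all genes alike, while limma moved the members' median further than that of all tested genes. In each of these settings signs turned for 4 members, Eef1a1 (2.65, 1.76 and 2.39), Eef1g (2.24, 1.37 and 1.21), Eif4a1 (1.81, 0.94 and 0.81) and Pabpc1 (2.74, 1.86 and 2.25). Relative to the median of all tested genes, 8 of 8 members kept the sign of the TMM fit with library totals and with coding counts, and 4 of 8 with limma. With no filter 0 members were called higher and 3 lower, 610 genes were lower, the members' median was -1.14 beside -1.86 over all genes, and signs turned for Eef2 (-0.17), Eef1b2 (-1.05), Eif4g2 (-0.85) and Tpt1 (-0.83). A filter of 10 or more counts in 2 or more libraries turned Eef1a1 to 0.30 and Pabpc1 to 0.40. The members' median was then 0.48, beside -0.51 over all tested genes, so the members no longer lay near the typical gene. Relative to that median, 5 of 8 members kept the sign of the TMM fit. TMM on coding genes with no small RNA gene turned Eef1b2 to -0.044 and gave a median of -0.13, beside -0.14 over all tested genes. Added pseudogenes turned Eef1a1 to 0.014 and Eef1g to 0.43, with a median of 0.21, beside 0.014 over all tested genes. The family's ratio of shares, 7.96 of all counts and 4.23 of coding counts, was 6.57 and 3.52 with only Pabpc1 and Eef1g, the members that hold no small RNA gene, and the coding ratio was 1.07 without Snrpb. The cause of these changes was not tested.

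Leaving out each library in turn gave 0 to 1 members called higher and 0 lower, 206 to 233 genes higher and 309 to 324 lower, and a median of -0.099 to 0.080. Differences ran from -0.28 to 0.031 for Eef1a1, -0.22 to 0.42 for Eef1b2, -0.68 to -0.25 for Eef1g, 0.75 to 1.35 for Eef2, -1.29 to -0.65 for Eif4a1, -0.37 to 0.86 for Eif4g2, -0.18 to 0.099 for Pabpc1 and 0.11 to 0.56 for Tpt1. A group left with 1 library is assumed to vary like the other. Of 120 values of single members under alternatives, 80 kept their direction and side of the threshold and 26 turned sign; in all, 22 gained a call and 3, all of Eef2, lost it. DESeq2 (1 member higher), median-of-ratios scaling, the replicate block and coding counts without Snrpb kept all 8. Replicate numbers are shared between the groups but are not said to pair them, and same-numbered libraries did not deviate together (correlation 0.0098 over 1011 genes); with the replicate block 244 genes were higher and 345 lower, and Eef2 stood at 1.02. Depth limits the members most in exosomes, where 5 of 8 had fewer than 10 counts in each library.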
